A study of Caenorhabditis elegans with 2 samples.

Results

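The binding of ELT-2 was examined at 9 genes of iron and haem homeostasis in Caenorhabditis elegans, chosen by name from 19973 nuclear coding genes: the ferritin genes ftn-1 and ftn-2, the metal transporter genes smf-1, smf-2 and smf-3, and the haem transporter genes hrg-1, hrg-4, hrg-5 and hrg-6. The choice was made with earlier results of these data known. For each gene, peak summits were taken from the gene body and the 3000 bp upstream of its annotated 5′ end. The data are peak lists from ChIP-seq (chromatin immunoprecipitation and sequencing) in 1 group of 2 biological replicates, so no conditions were compared. The animals were whole L3 hermaphrodites of strain OP56, genotype unc-119(ed3) III; wgIs56, collected 40 hours after synchronization as starved L1. The integrated transgene wgIs56 supplies ELT-2 whose C-terminal end carries GFP and FLAG, and the antibody was against GFP, so the lists report the tagged protein in all tissues together. Iron and haem supply were not varied in these samples. Sequencing depth is unknown, since the peak lists carry no read counts. P-values are not given, because a single group allows no test, and the 2 replicates are shown side by side instead.

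ELT-2 is the main GATA-type transcription factor of the differentiated worm intestine and binds TGATAA, its core site. The intestine takes up, stores and exports iron and haem. Ferritin forms a hollow shell that stores iron, and the SMF proteins belong to the NRAMP/DMT1 family, which brings iron, manganese and other divalent metals into cells. Worms cannot make haem, and HRG-4 and HRG-1 carry it across membranes: HRG-4 brings dietary haem into the intestinal cell, and HRG-1 releases it from lysosome-related compartments. Published work describes iron-dependent enhancers at ferritin genes and smf-3 that combine GATA sites with hypoxia response elements, the sites of the factor HIF-1, and describes a haem-responsive element at hrg-1 that acts together with GATA sites. The coordinates of those elements were not used here. Matches to TGATAA and to the core of the hypoxia response element, ACGTG or GCGTG, were looked for on both strands instead.

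The sequences of 7 intervals, 6 beside summits of the peaks that passed the irreproducible discovery rate (IDR) filter and 1 without a summit, show how these sites lie. They were read from the RefSeq sequence of WBcel235, the assembly of ce11, are written 5′ to 3′ in the direction of the named gene, and have TGATAA and the hypoxia response core of either strand in capitals. The ftn-1 interval (chrV:7548169-7548269, minus strand) holds 2 TGATAA and 3 cores and begins 690 bp upstream of the gene. The smf-3 interval (chrIV:2618689-2618829, plus strand) holds 3 TGATAA in tandem, and the smf-1 interval (chrX:6723106-6723241, minus strand) holds a pair in opposite orientations. The first hrg-1 interval (chrX:4009061-4009181, minus strand) spans the strongest summit of all 9 genes, and the second (chrX:4018911-4019021, minus strand) a summit far upstream. The hrg-4 interval (chrIV:11031798-11031938, minus strand) lies between hrg-4 and hrg-6. The smf-2 interval (chrX:6719325-6719365, minus strand) holds a pair of sites that touch, with no summit near.
ftn-1: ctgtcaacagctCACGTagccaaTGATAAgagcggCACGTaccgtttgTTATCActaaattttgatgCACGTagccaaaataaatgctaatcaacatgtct
smf-3: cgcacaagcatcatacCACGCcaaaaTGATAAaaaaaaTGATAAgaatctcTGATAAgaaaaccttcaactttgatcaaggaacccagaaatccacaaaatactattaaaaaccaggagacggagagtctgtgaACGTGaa
smf-1: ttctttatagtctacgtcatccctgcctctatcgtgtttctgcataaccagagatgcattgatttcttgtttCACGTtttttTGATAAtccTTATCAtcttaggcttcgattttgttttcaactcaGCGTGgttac
hrg-1, strongest summit: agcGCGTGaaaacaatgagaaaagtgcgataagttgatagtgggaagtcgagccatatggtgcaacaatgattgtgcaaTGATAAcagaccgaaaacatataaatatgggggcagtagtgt
hrg-1, far upstream: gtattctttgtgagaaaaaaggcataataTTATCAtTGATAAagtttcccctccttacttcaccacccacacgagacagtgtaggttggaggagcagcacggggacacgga
hrg-4 and hrg-6: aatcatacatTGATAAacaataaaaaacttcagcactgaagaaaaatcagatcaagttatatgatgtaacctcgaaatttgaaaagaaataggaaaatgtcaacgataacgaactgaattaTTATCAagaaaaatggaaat
smf-2, no summit: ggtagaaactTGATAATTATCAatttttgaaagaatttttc

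A summit that passed IDR lay in the window of 8 of the 9 genes, against 38.7% of all coding genes, and smf-2 was the gene without one. The windows held 17 distinct summits in 14 separate peak regions, of the 9198 peaks that passed IDR. By the signal of the strongest summit, which is the authors' value per peak in the pooled list, the order was hrg-1 with 2081, ftn-2 with 1886, smf-3 with 1384, then hrg-4, hrg-5 and hrg-6 with the same summit at 572, ftn-1 with 421 and smf-1 with 227. The ranks in each replicate's own list put these 6 summits in the same order. Over the 7735 coding genes with a summit, the median of the strongest signal was 249. A summit at least as strong lay in the windows of 0.175% of all coding genes for hrg-1, 0.260% for ftn-2, 0.826% for smf-3, 7.02% for the 3 clustered hrg genes, 11.1% for ftn-1 and 21.0% for smf-1. The window of hrg-1, at 11165 bp, was the longest of the 9 and that of ftn-2, at 3748 bp, the shortest. Of the 17 summits, 10 lay in the window of more than 1 coding gene. No share over all summits was taken for this count, so it does not show a trait of these genes.

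**Figure D1:**
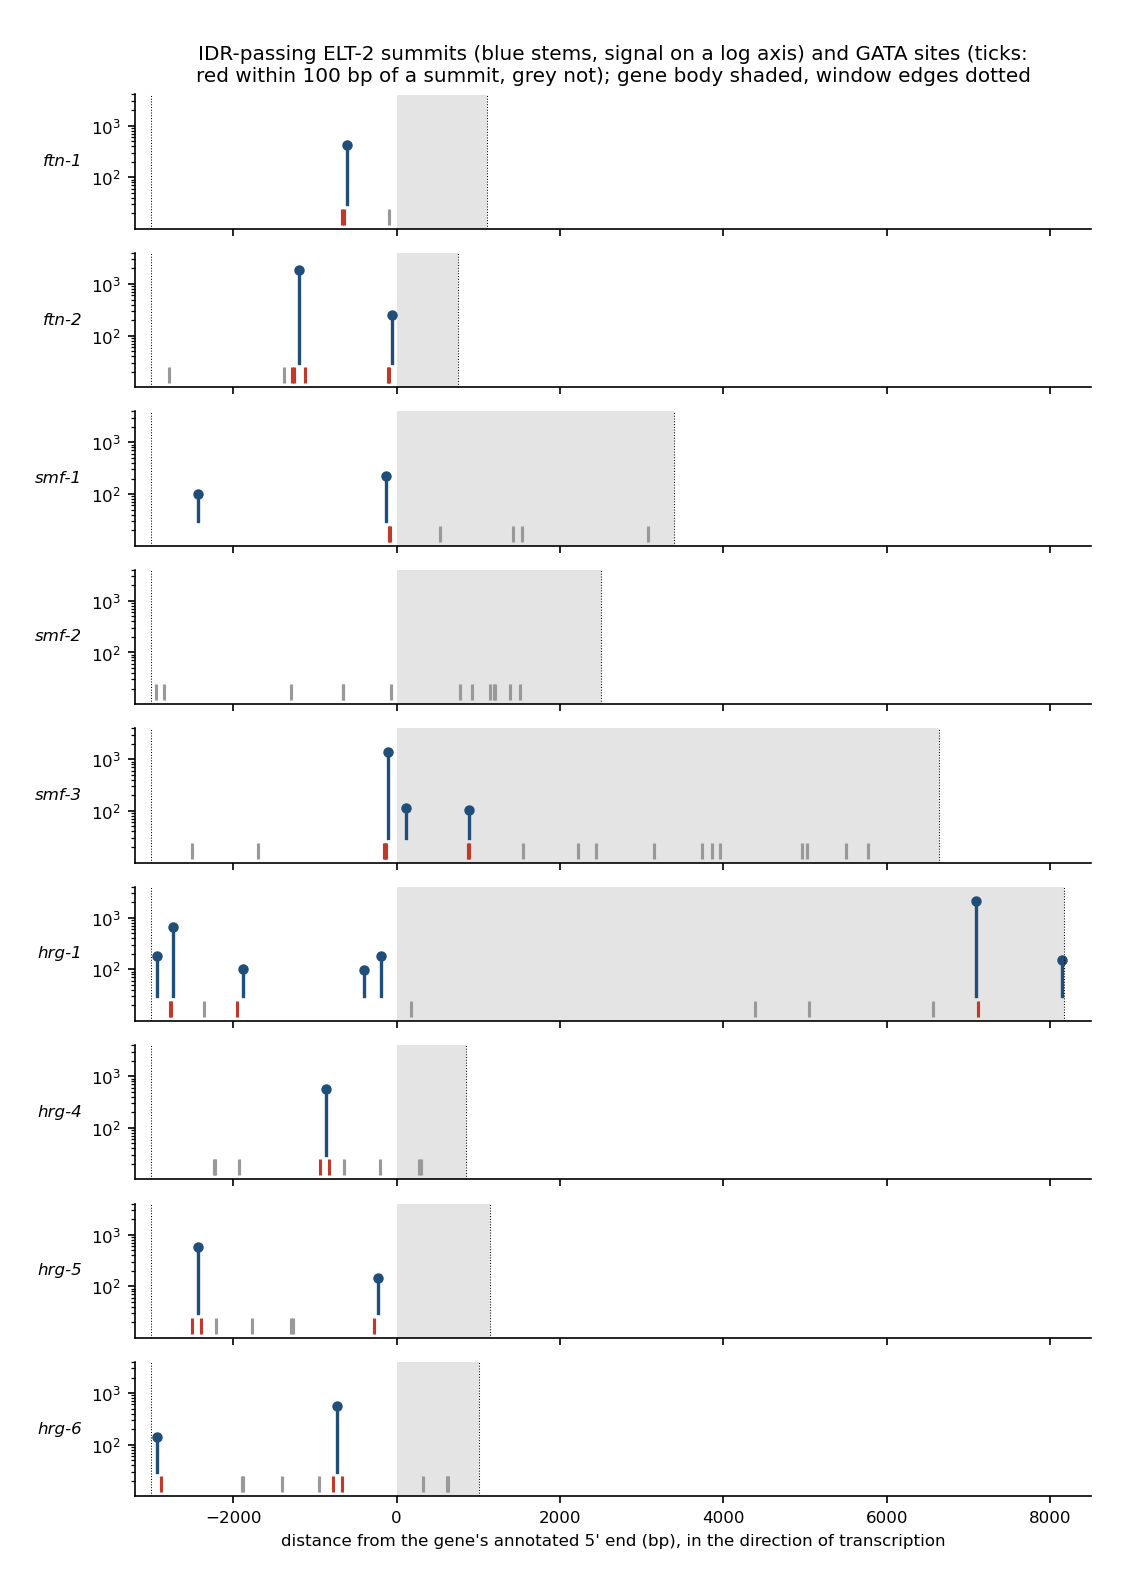
Summits that passed IDR and GATA sites (TGATAA) at the 9 genes, by distance in bp from each gene's annotated 5′ end, with the signal of each summit on a log axis (blue stems) and the gene body shaded. The stems of hrg-1, ftn-2 and smf-3 exceed 1000, and smf-2 has GATA ticks but no stem.

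**Figure D2:**
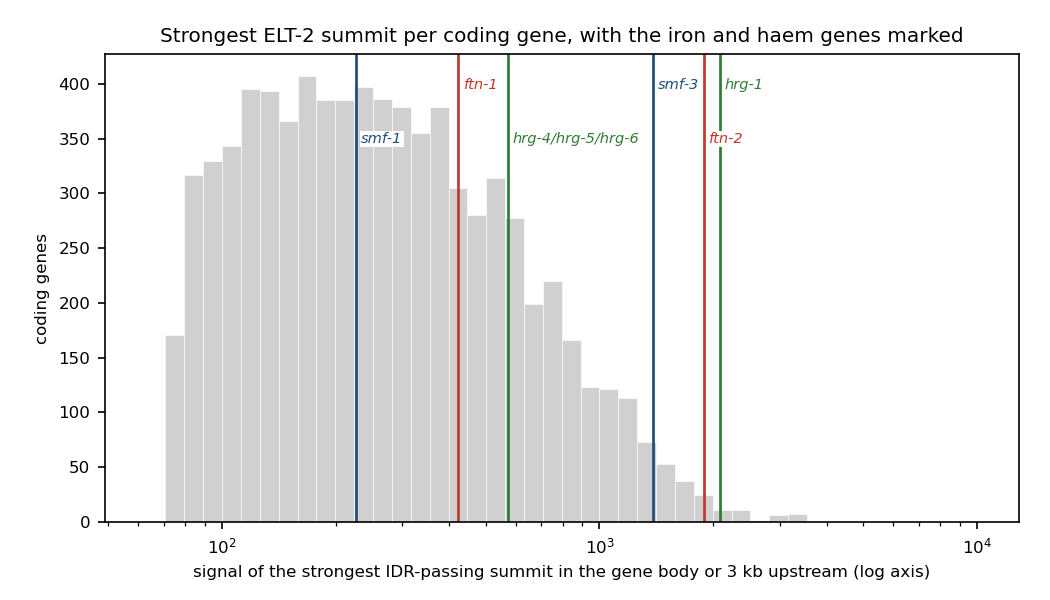
Signal of the strongest summit per coding gene on a log axis (grey bars count the 7735 coding genes with a summit), with a line for each iron or haem gene. The lines of smf-3, ftn-2 and hrg-1 stand in the right tail, and that of smf-1, at 227, lies below the median of 249.

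The iron storage gene ftn-1 (WBGene00001500, chromosome V 7546468 to 7547579, minus strand) had a single summit, at 7548185 in intergenic sequence, 606 bp upstream. Its signal was 204 in replicate 1, 221 in replicate 2 and 421 in the pooled list, with ranks of 1747, 2350 and 2059. The summit of replicate 1 stood 44 bp farther upstream than the pooled summit, between the pair of TGATAA that begin 667 and 642 bp upstream, and that of replicate 2 stood 3 bp from the pooled one on the gene's side. A TGATAA closer to the gene, 94 bp upstream, had no summit within 100 bp. The list of replicate 1 also held a peak inside ftn-1, at rank 25600 with a signal of 10.4, which the lists of replicate 2 and of the pooled replicates lacked.

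The other ferritin gene, ftn-2 (WBGene00001501, chromosome I 3680180 to 3680927, minus strand), had a far higher summit than ftn-1 in each list. Its signal was 825 in replicate 1, 1062 in replicate 2 and 1886 pooled, with ranks of 62, 46 and 47. This summit, at 3682126, was intergenic and 1199 bp upstream of ftn-2, the gene with the nearest transcript start, and it had 3 TGATAA within 100 bp. A weaker summit 54 bp upstream, next to the transcript start, had signals of 104 and 147 in replicates 1 and 2 and 251 pooled, with ranks of 3849, 3737 and 3767. Beside it stood a pair of TGATAA in opposite orientations, with starts 8 bp apart.

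The upstream sites of both ferritin genes followed 1 arrangement. In the direction of transcription, each had a core, a TGATAA, a core, a TGATAA on the opposite strand and a further core, with all 3 cores on the strand opposite to the gene. The starts were 11, 12, 13 and 19 bp apart at ftn-1, where the first core begins 678 bp upstream, and 11, 12, 13 and 20 bp apart at ftn-2, where it begins 1285 bp upstream. A search of the nuclear genome for these sites in this order, orientation and spacing found 2 places, which were ftn-1 and ftn-2, and the number stayed at 2 when each distance was allowed to differ by 2 bp. This search was chosen after the sites had been seen. Of the 60 bp of the ftn-1 cluster, 32 matched the best ungapped position in the ftn-2 window, which begins 1285 bp upstream, and the next best position matched 30. Within the sites 22 of 27 bp matched there, the last core being shifted by 1 bp, and outside them 10 of 33 bp. As that position lines up the shared sites, the match within them restates the arrangement. In the windows of the smf and hrg genes, the best positions matched 28 to 30 of the 60 bp.

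Clusters of this composition, with at least 2 TGATAA and 1 core inside 100 bp, were present in the windows of 5 of the 9 genes, against 12.4% of all coding genes. A cluster lay within 100 bp of a summit at 4 of the 9 genes, ftn-1, ftn-2, smf-1 and smf-3, against 3.66% of all coding genes. Of the 6 clusters in these windows, 5 had a summit that near, against 28.5% of the clusters in all coding gene windows. The sixth lay inside smf-2. The 4 haem transporter genes had no such cluster in their windows. For hrg-1 this absence depends on the narrow motif. With the wider motif defined under the processing checks below, the interval printed for its strongest summit holds 2 sites and 1 core inside 100 bp. A contrast between iron and haem genes therefore cannot be drawn from TGATAA clusters alone. The composition was taken from published enhancers of ferritin genes and smf-3, which are themselves among the 9 genes. The excess over all coding genes was therefore partly set by that choice. The letters of such a cluster show neither that HIF-1 binds there nor that iron acts through it, and neither was measured.

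**Figure D3:**
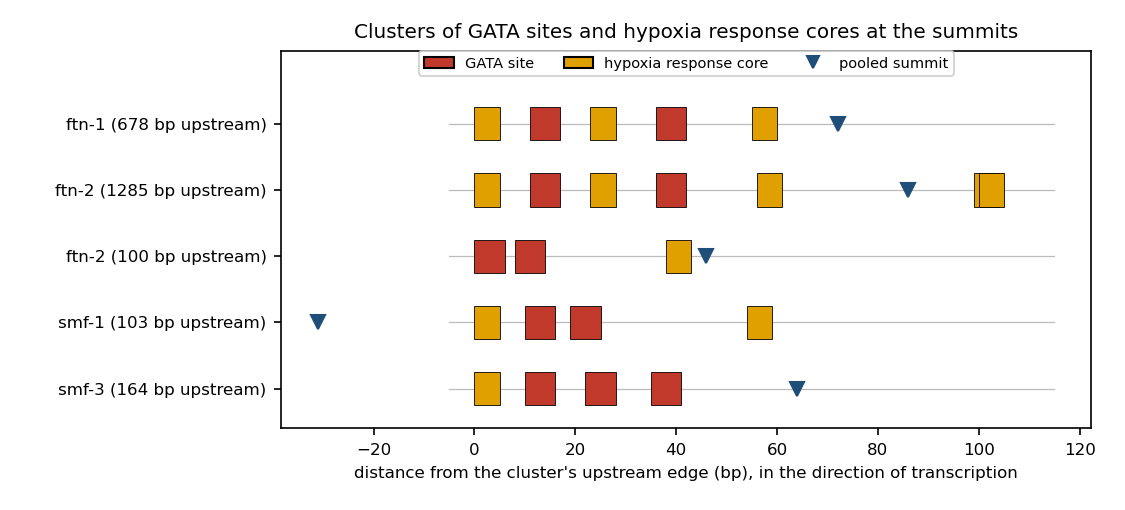
The 5 clusters that lie within 100 bp of a summit, drawn from their upstream edge in bp, with GATA sites (TGATAA) in red, hypoxia response cores in yellow and the pooled summit as a blue triangle. The first 5 sites of ftn-1 and of the upstream ftn-2 cluster fall at the same distances to within 1 bp, and the overlapping cores at the right end of that ftn-2 cluster are matches on both strands of the same letters.

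The metal transporter gene smf-3 (WBGene00004878, chromosome IV 2618869 to 2625503, plus strand) had the strongest summit of its family, at 2618769, 100 bp upstream. Its signal was 596 in replicate 1, 800.3 in replicate 2 and 1384 pooled, with ranks of 167, 129 and 146. The 3 TGATAA of the printed interval begin 154, 142 and 129 bp upstream, all on the strand of the gene, with starts 12 and 13 bp apart, and a core begins 164 bp upstream. A second summit, 110 bp downstream of the start in an intron, shares its peak region with the first, had no TGATAA within 100 bp and reached 114 pooled. It had a match in replicate 2, with 52.7 at rank 8367, and none in replicate 1. A further summit, 881 bp downstream in the intron, lies 120 bp upstream of a second annotated transcript start of smf-3 and over a pair of TGATAA with starts 12 bp apart. Its signal was 48.1 in replicate 1, 47.3 in replicate 2 and 105 pooled, with ranks of 7222, 8891 and 7499. The smf-3 window, at 9635 bp, also held weak peaks. The pooled list with background had 13 summits there, and 10 of its 18 TGATAA had one within 100 bp, against 5 with the IDR-passing list. Those that did not pass IDR had signals of 14.4 to 38.2, and the weakest of that whole list was 14.3. No share over all coding gene windows is given for these counts, so they do not show an excess at smf-3.

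At smf-1 (WBGene00004876, chromosome X 6719669 to 6723066, minus strand), the stronger summit was at 6723200, 134 bp upstream. Its signal was 82.4 in replicate 1, 141 in replicate 2 and 227 pooled, with ranks of 4740, 3928 and 4140. The TGATAA pair of the printed interval begins 93 and 84 bp upstream. A weaker summit 2425 bp upstream, with signals of 65.9, 34.5 and 98.3 in replicate 1, replicate 2 and the pooled list, lay in a coding exon of the neighbouring gene slc-25A10, 177 bp downstream of that gene's start, and had no TGATAA within 100 bp.

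The remaining SMF gene, smf-2 (WBGene00004877, chromosome X 6716195 to 6718695, minus strand), lies next to smf-1 and had no summit in its window in any of the 4 lists, background peaks included. The same was true of 33.9% of all coding genes, and of 24.2% of the 7945 coding genes with a window at least as long. The nearest summits of any list were 3191 bp upstream of smf-2, a peak inside smf-1 just beyond the window that replicate 1 alone held at rank 17703, and 12565 bp beyond the other end of smf-2, which leaves a stretch of 18.3 kb without a summit. Of the 97159 gaps between neighbouring summits of the 4 lists combined, 1063 (1.09%) were at least as long. The same peak stands in several lists, and the median gap was 48 bp. This share therefore does not say how rare such a stretch is in the genome. The window nevertheless held 13 TGATAA, against a median of 6 over all coding genes, and 8.57% of coding genes had at least as many. Among them were a touching pair with opposite orientations 660 and 654 bp upstream, a single site 70 bp upstream and 3 sites inside the gene that form a cluster with cores. A weak peak could not be told from none at a depth that is unknown.

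The haem transporter gene hrg-1 (WBGene00019830, chromosome X 4008057 to 4016221, minus strand) had 7 summits, the most of the 9 genes. The strongest, at 4009135, had signals of 909.8 in replicate 1, 1175 in replicate 2 and 2081 pooled, with ranks of 38, 30 and 34. It lay 7086 bp downstream of the gene's outermost annotated start, in an intron of the long transcripts, and 154 bp upstream of the start of a short transcript. A single TGATAA was centred 35.5 bp from it, and a core lay in the same interval. The next summit, at 4018957, reached 267, 394 and 660.4 in replicate 1, replicate 2 and the pooled list, with ranks of 1102, 888 and 971. It lay 2736 bp upstream over a pair of TGATAA in opposite orientations with starts 7 bp apart, in an intron of mop-25.1, which is transcribed the other way, and 290 bp upstream of a transcript start of that gene. The other 5 summits had pooled signals of 95.5 to 182, and 2 of the 5 had a TGATAA within 100 bp, one summit 1883 bp upstream and one in the 3′ UTR. Both depend on the pooled summit position. The TGATAA near the 3′ UTR summit begins 8238 bp downstream of the outermost start, beyond the end of hrg-1, and lay within 100 bp of neither replicate's summit. That of the summit 1883 bp upstream was within 100 bp in replicate 1 but not in replicate 2. The summit closest to the outermost start, 191 bp upstream, had no TGATAA within 100 bp and ranked 7533 in replicate 1, with a signal of 45.3, and 4029 in replicate 2, with a signal of 138. The summit in the 3′ UTR was weak in each replicate, with 23.5 and 40.8 in replicates 1 and 2. All 5 summits upstream of hrg-1 lay in introns of mop-25.1. Of the 7 summits, 4 were nearest to a transcript start of hrg-1 and 3 to one of mop-25.1, so position alone does not assign the upstream summits to hrg-1.

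The intestinal haem importer gene hrg-4 (WBGene00009493, chromosome IV 11030143 to 11030993, minus strand), hrg-5 (WBGene00009494, 11028289 to 11029428, minus strand) and hrg-6 (WBGene00009495, 11032588 to 11033599, plus strand) lie side by side and shared their strongest summit. It was at 11031855, between the divergent genes hrg-4 and hrg-6, 862 bp upstream of hrg-4, 733 bp upstream of hrg-6 and 2427 bp upstream of hrg-5, and hrg-6 had the nearest start. Its signal was 264 in replicate 1, 309.8 in replicate 2 and 572 pooled, with ranks of 1136, 1405 and 1281. The 2 TGATAA of the printed interval begin 935 and 824 bp upstream of hrg-4, on either side of the summit. A separate summit 224 bp upstream of hrg-5, with 1 TGATAA, reached 64.3, 75.8 and 143 in replicate 1, replicate 2 and the pooled list, at ranks 5798, 6647 and 6086. Just under the weakest signal that passed IDR, 75.0, the pooled list held a summit inside hrg-4 with 69.6 at rank 9616 and a summit inside hrg-6 with 64.1 at rank 10062. Each of these had 2 TGATAA within 100 bp and a peak in both replicates.

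Over all 9 genes, 12 of the 17 summits (70.6%) had a TGATAA within 100 bp, against 53.9% of all 9181 nuclear summits that passed IDR, and 8 of 17 (47.1%) had at least 2, against 24.8%. All 8 summits at or above the median signal of the list had the site, against 66.4% of all such summits. Among the 9 weaker summits 4 had it (44.4%), against 41.3% of all weaker summits. Read from the sites, 21 of the 63 distinct TGATAA in the windows had a summit within 100 bp (33.3%), against 7.65% of the TGATAA in all coding gene windows. By gene, the counts were 2 of 3 at ftn-1, 5 of 7 at ftn-2, 2 of 6 at smf-1, 0 of 13 at smf-2, 5 of 18 at smf-3, 4 of 9 at hrg-1, 2 of 9 at hrg-4, 3 of 7 at hrg-5 and 3 of 10 at hrg-6, with sites in overlapping windows counted for each gene. No test was made of these shares.

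Both replicates held a match within 100 bp for 16 of the 17 summits, the exception being the summit downstream of the smf-3 start. Of the matched summits, 93.8% had ranks within 2-fold of each other, against 96.9% of the 8851 nuclear IDR-passing peaks matched in both. The summit that differed most was the one 2935 bp upstream of hrg-1, at rank 10389 in replicate 1 and 4515 in replicate 2. It shares its peak region with the stronger summit 2736 bp upstream. With 2 replicates there is no further measure of spread, and the signals of different lists are on different scales.

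**Figure D4:**
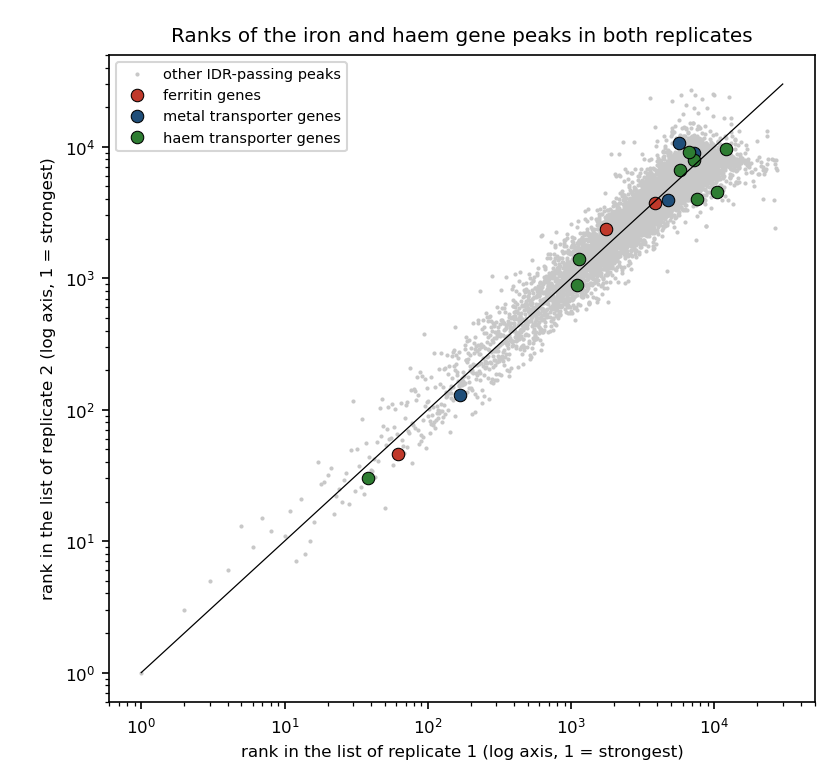
Rank of each peak in the lists of replicate 1 (horizontal) and replicate 2 (vertical), both on log axes with 1 as the strongest, for the 16 summits of the iron and haem genes matched in both (coloured by family) and for the other IDR-passing peaks (grey). The strongest summits of hrg-1, ftn-2 and smf-3 rank between 30 and 167 in both lists, and the grey points spread more toward weaker ranks.

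Summits were also frequent at further genes of iron and haem metabolism, which were likewise chosen with earlier results of these data known. Of 20 such genes, 18 had a summit that passed IDR in the same kind of window, against 38.7% of all coding genes. The strongest summit was that of mrp-5, a haem exporter gene, 275 bp upstream with a pooled signal of 1679 at rank 78 and 2 TGATAA within 100 bp. It was followed by hrg-7, which encodes a secreted protein that signals haem status between tissues (916), hrg-3, which encodes a haem chaperone delivered to embryos (564), the regulator genes hif-1 (552) and egl-9 (548), which encodes the hydroxylase that marks HIF-1 for destruction, and aco-1, the aconitase and homologue of iron regulatory protein (513). The others at or above the median signal were the mitoferrin gene mfn-1 (419), hrg-10 (407), the nuclear receptor gene nhr-14 (372), the ferroportin homologues fpn-1.1 (307) and fpn-1.2 (220.5), the cytochrome c haem lyase gene cchl-1 (217) and the iron-sulfur scaffold gene iscu-1 (212). The strongest summit had a TGATAA within 100 bp in 11 of the 18 genes (61.1%), against 53.9% of all summits of any strength. Those shares are not like for like, since 13 of the 18 genes had a summit at or above the median signal. Of all summits, 66.4% at or above the median had the site and 41.3% below it. The 7 genes whose strongest summit had none were hrg-7, hif-1, egl-9, aco-1, cchl-1, the haem A synthesis gene cox-15 and the frataxin gene frh-1. No summit that passed IDR lay in the windows of vhl-1, which encodes the partner of EGL-9 in HIF-1 turnover, and hrg-2, known from the hypodermis. In the whole pooled list, background included, all 20 genes had a summit, against 58.4% of all coding genes. For mfn-1, cchl-1 and cox-15 the strongest summit was nearer to a start of another gene, which was metl-1, rpn-9 and cchl-1 in turn. The same held for cox-10 (nearest to Y38E10A.22) and nfs-1 (nearest to mrpl-9), both below the median signal. With assignment to the nearest transcript start only, 15 of the 20 genes had a summit, against 26.4% of all coding genes.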

How the data were processed

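Per the labels, ChIP-seq with an antibody against GFP was done on 2 biological replicates of 1 group. The authors deposited peak lists on ce11 for each replicate and for the pooled replicates, both with background, and the pooled peaks that passed IDR, which are the 9198 strongest of the pooled list. The signal in the deposited lists was computed by the authors with a control library, per the deposited text files (the control was not analysed here), and was used only to describe and rank peaks. No aligner, peak caller or IDR threshold is given in the sources used here. The lists on ce10 were not used. Summits are the peak start plus the deposited offset, written 1-based. Genes came from WBcel235 (Ensembl release 115) and sequence from the RefSeq copy of WBcel235, whose nuclear chromosomes are long enough for every nuclear ce11 peak.

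A gene's window was its body plus 3000 bp upstream. A site counted as near if it lay wholly within 100 bp of a summit, and replicates were matched by summits within 100 bp. No test was made, because there is 1 group. Shares over all coding genes or summits are given beside the members' counts. The 9 genes, the further list of 21 iron and haem genes (20 in the annotation, without fpn-1.3) and the rule for named genes (all 9 genes, and of the further list those at or above the median signal and those with no summit) were chosen with earlier results of these data known. The further genes cox-10, cox-15, frh-1 and nfs-1, all below the median signal, were named outside that rule. Alternatives for the window, gene assignment, peak list, distance and motif were run. In a simulated sequence with planted sites and summits, the counts of genes with a summit, clusters and clusters near a summit came back as planted. That simulation did not cover the other steps. Python 3.11.15, numpy 2.4.6, pandas 2.3.3 and matplotlib 3.10.9 were used.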

Additional observations from a re-analysis of the deposited data

How the results depend on the processing

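A summit lay at 8 of the 9 genes under every alternative run except assignment to the nearest transcript start only, which gave 7, because the summit shared by hrg-4 and hrg-6 then counted for hrg-6 alone. The share of all coding genes moved more, from 22.9% with only peaks at or above the median signal to 58.4% with the whole pooled list. It was 26.4% with the nearest start only and was not taken for any overlap of a peak with the window. The number of distinct summits was 17, and it was 11 with the promoter window of 1000 bp upstream to 500 bp downstream, 8 with only peaks at or above the median signal and 37 with the whole pooled list. Of the 20 further genes, the promoter window left 14 with a summit, against 26.7% of all coding genes. The share of summits with TGATAA was 100% with the stronger peaks only, against 70.6%, while the shares over all summits were 66.4% and 53.9%. Within 50 bp it was 52.9%, against 40.8% of all summits. The share of TGATAA with a summit near was 20.6% within 50 bp and 18.6% for a wider motif (TGATAA or TGATAG or AGATAA or AGATAG), against 33.3%, while the shares over all coding gene windows were 4.99% and 5.31%, against 7.65%. With the wider motif, 70.6% of the summits at the 9 genes had a site, against 69.6% of all summits, so the difference seen with TGATAA was nearly lost. Clusters built with the wider motif numbered 9 in the windows of the 9 genes, and 6 had a summit within 100 bp. That share was 66.7%, against 15.5% of such clusters in all coding gene windows. With TGATAA the shares were 83.3% and 28.5%.

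With the strongest peaks of a single replicate in place of the IDR-passing list, the results ran from 8 to 8 genes, 14 to 15 summits, 18 to 18 of the further genes, 66.7% to 78.6% of summits with TGATAA, 30.2% to 33.3% of TGATAA near a summit and 83.3% to 83.3% of clusters near a summit. The shares of all coding genes were 38.3% without replicate 1 and 37.7% without replicate 2. Over all summits 53.6% and 53.2% had TGATAA. Of all TGATAA in coding gene windows 7.61% and 7.55% had a summit near, and of all clusters there 28.4% in both cases. No paired analysis was possible because both replicates belong to 1 group and no test was made. The unknown depth limits what can be said of weak or missing peaks. Annotated transcript starts may differ from the true starts, since many worm transcripts are trans-spliced.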

Other observations

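A shorter arrangement was shared by both ferritin genes, smf-1 and smf-3. At each, a hypoxia response core on the opposite strand is followed by a TGATAA on the strand of the gene, with starts 11 bp apart at ftn-1 and ftn-2 and 10 bp apart at smf-1 and smf-3, and each of these TGATAA had an IDR-passing summit within 100 bp. Such a pair, at 10 or 11 bp and in either direction, was in the windows of 4 of the 9 genes, against 1.16% of all coding genes (232 genes). Of the 156 such pairs in all coding gene windows, 21 (13.5%) had a summit within 100 bp of the TGATAA, against 7.65% of all TGATAA there. Without the 4 pairs at ftn-1, ftn-2, smf-1 and smf-3, from which the arrangement was taken, 17 of 152 had one (11.2%). The arrangement was chosen after the sequences at these genes had been seen, and the difference was not tested.

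The ftn-1 cluster repeats the 11 letters CACGTAGCCAA, from 678 and from 623 bp upstream, around its outer cores. The ftn-2 window holds no copy of the whole word, and the longest part of it at the upstream ftn-2 cluster is 9 bp.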
